A study of Mus musculus with 6 samples.

Results

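The enzymes of xenobiotic metabolism were selected from the hippocampal RNA-seq table by gene symbol alone, as the genes named as cytochrome P450s (Cyp), P450 reductase (Por), flavin monooxygenases (Fmo), epoxide hydrolases (Ephx), carboxylesterases (Ces), aldo-keto reductases (Akr), carbonyl reductases (Cbr), sulfotransferases (Sult), UDP-glycosyltransferases (Ugt) and N-acetyltransferases (Nat). In all, 81 of the 16060 rows of the table carried such a symbol. The set was chosen, and Sult1a1 singled out from the start, with earlier results of these data known. The table holds 6 libraries of mouse hippocampal RNA, of which 3 are labelled Control and 3 are labelled MA. The labels do not say whether each library came from 1 animal or from several, and p-values measure only the spread between these libraries. All were adult male C57BL/6 mice. The Control group received saline, and the MA group received methamphetamine (MA) intraperitoneally in doses that rose from 5 mg/kg in week 1 to 10 in week 2 and 15 in week 3. Open field and elevated plus maze tests were run on day 22 and the animals were killed straight afterwards. The interval from the last dose to dissection is not given in the sources used here. The groups are named as the libraries are labelled, and every direction below rests on those labels. No gene was deleted or added in these mice, so no targeted gene checks them. The activity-induced genes Fos, Egr1, Arc and Nr4a1 were lower in the libraries labelled MA, with log2 fold changes of -1.61, -1.46, -1.80 and -1.45 and all MA values below all Control values (limma adjusted p between 0.0181 and 0.0315). The paper reports the opposite direction for these genes, higher in MA-treated mice by RNA-seq and by qPCR. Whether the labels of the 2 groups were exchanged was not tested, and if they were, each direction given here would turn.

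Drug-metabolizing enzymes work in 2 steps. Phase I enzymes add or expose a reactive group by oxidation, reduction or hydrolysis, and phase II enzymes then attach sulfate, a sugar acid, an acetyl group or glutathione, which makes the product easier to excrete. The liver carries most of this activity. In brain many of the same families act on endogenous molecules instead, among them cholesterol, neurosteroids, retinoic acid, fatty acid epoxides and the galactolipids of myelin. In humans, methamphetamine is hydroxylated and demethylated mainly by CYP2D6, a P450 of the liver that also occurs in brain. The symbol rule also takes in genes outside drug metabolism. Nat6 and Nat9 are named as N-acetyltransferases but do not act on drugs, and Cyp4x1os is an antisense RNA, not an enzyme.

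Of the 81 genes, 49 passed the filter on low levels (a level of at least 0.5 in at least 3 libraries) and 32 did not. The level is the deposited value back-transformed from log2 of the value plus 1, on a scale that its authors name RPKM, which is per length of gene and so allows genes to be compared. The highest levels were those of the aldehyde reductase Akr1a1, with a mean of 268 over the 6 libraries, and of the brain sulfotransferase Sult4a1, with 230. The neuronal cholesterol 24-hydroxylase Cyp46a1 followed at 66.5, close to the carbonyl reductase Cbr1 at 61.7. Ephx4 was at 35.0 and Por, which passes electrons to the microsomal P450s, at 30.9. Only 13 of the 81 genes had a mean level above 10. None of the 26 genes of the Cyp1 to Cyp4 families, which hold the typical drug-oxidizing P450s, was among them. Their highest member was Cyp2j9, an arachidonic acid epoxygenase, at 9.35, and Cyp2d22, often taken as the mouse counterpart of CYP2D6, was at 8.25. The classic inducible gene Cyp1a1 was at 0.0153. It was listed at 0 in 2 of the 6 libraries and at 0.000206, the lowest value of that library, in MA replicate 3. Of the 10 Ugt genes, 2 passed the filter, and of the 3 carboxylesterases none did. The 9 Ugt1a rows share their last exons in the annotation, so that reads over those exons cannot be assigned among them, and 1 of the 9, Ugt1a6a, was tested.

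**Figure D1:**
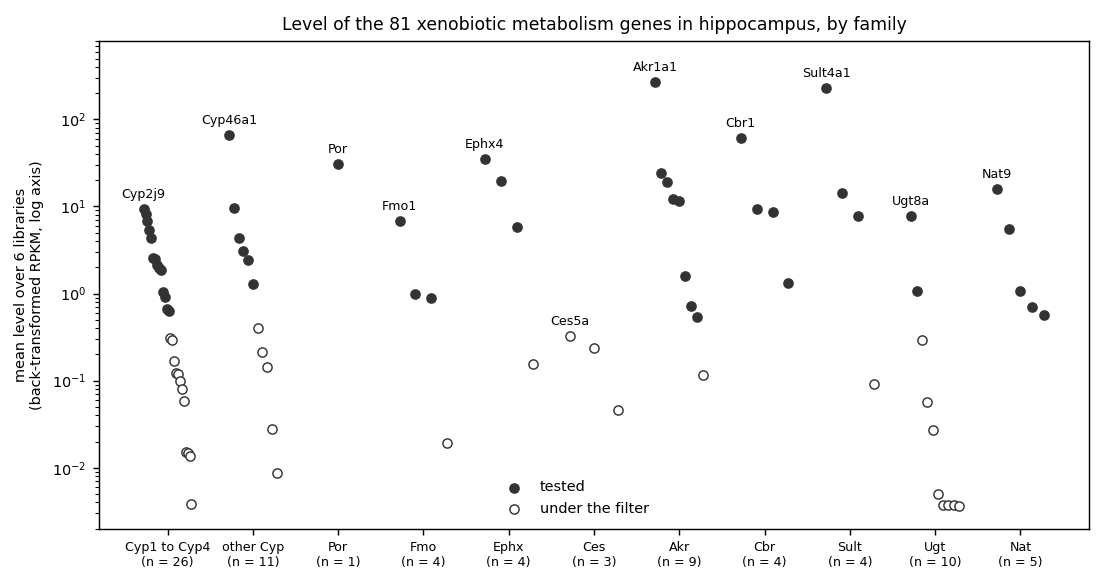
Mean level over the 6 libraries (back-transformed RPKM, log axis) of each of the 81 genes, grouped by family and ordered by level within a family, with filled points for the 49 tested genes and open points for the 32 under the filter. The gene with the highest level of each family is named; Akr1a1 at 268 and Sult4a1 at 230 stand above all others, and the Ces and most Ugt genes lie under the filter.

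MA replicate 3 stood apart from the other libraries. Its lowest value was 0.000206, shared by 397 rows, where the other 5 libraries had between 259 and 437 rows at 0, so that 397 lies within the range of the others. Its value lay outside the range of the other 5 libraries in 26 of the 49 tested genes (53.1%), against 55.4% of all 13321 tested rows. In the other libraries between 13 and 16 of the 49 lay outside. The count at the adjusted threshold, and the values of the 15 genes with the smallest p, are also given without it. The median log2 fold change of the 49 genes was 0.0078, with 25 higher and 24 lower in the MA libraries, and the median over all tested rows was -0.010. Of the 49 differences, 46 were smaller than 0.5 on the log2 scale.

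With limma and Benjamini-Hochberg adjustment over all 13321 tested rows, 1 of the 49 genes passed an adjusted p-value of 0.05, and this was Sult1a1, which rose in the MA libraries. That is 2.04% of the members, where 0.263% of all tested rows were called and 0.165% were called as higher. The set was chosen, and this gene singled out, with earlier results of these data known. The shares in this paragraph are thus no result about the members as a set. At an unadjusted p-value of 0.05, the threshold was passed by 8 of the 49 (16.3%, against 10.4% of all tested rows). These were 3 higher genes (6.12%, against 4.99%) and 5 lower genes (10.2%, against 5.46%). The 3 MA libraries lay above all 3 Control libraries for 5 genes (10.2%, against 7.32%) and below them for 6 genes (12.2%, against 10.2%). Without MA replicate 3, 2 genes were called, Sult1a1 and Akr1c18, which is 4.08% against 1.93% of all tested rows.

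**Figure D2:**
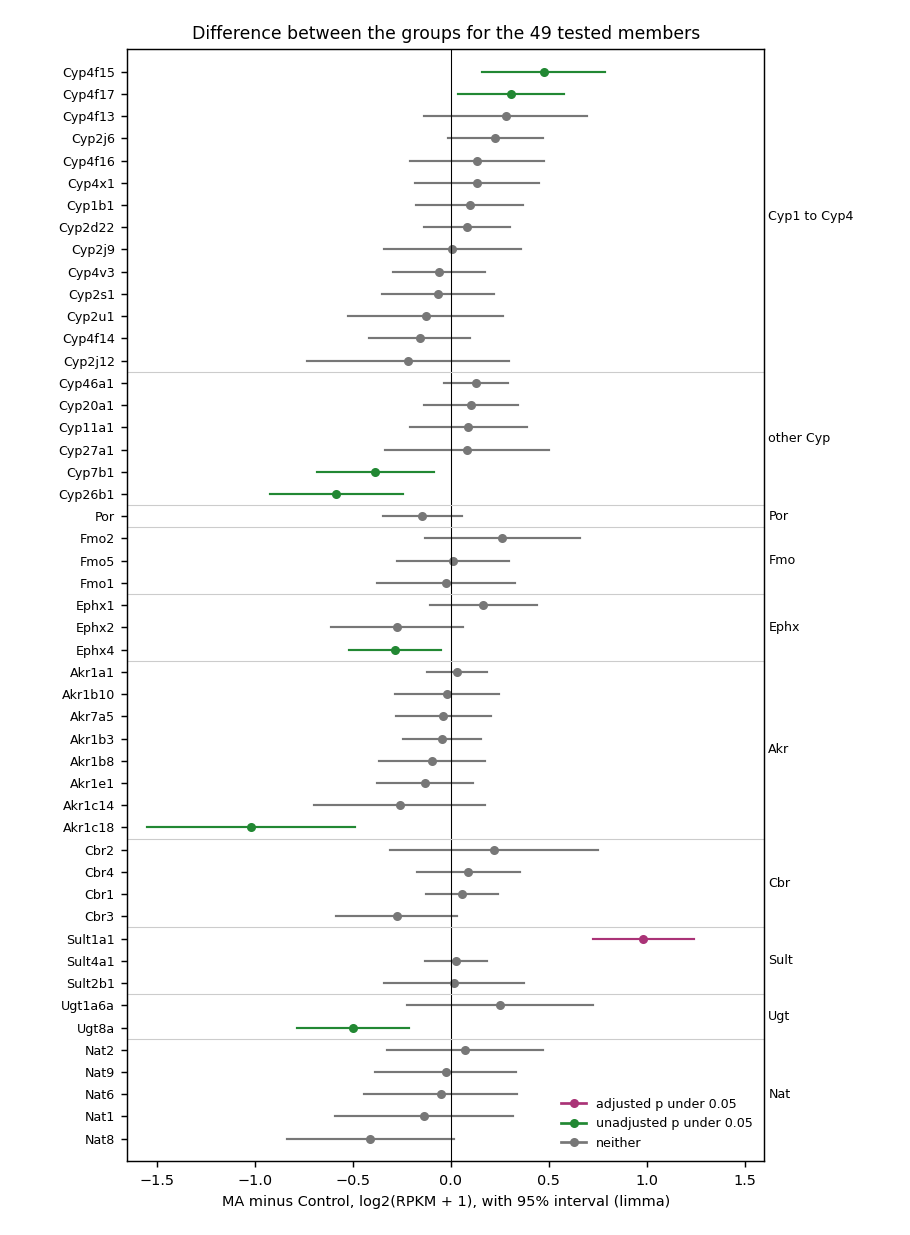
Difference between the groups, MA minus Control on the log2(RPKM + 1) scale, for each of the 49 tested genes with its 95% interval from limma, grouped by family. Sult1a1 at 0.98 is the only gene past an adjusted p-value of 0.05, Akr1c18 at -1.02 lies farthest from zero in the other direction, and most other points lie within 0.5 of zero.

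Sult1a1 encodes the phenol sulfotransferase, which moves sulfate from the donor PAPS to phenols, catechols and many drugs. On the log2 scale its values were 3.30, 3.53 and 3.30 in Control replicates 1, 2 and 3 and 4.23, 4.49 and 4.35 in MA replicates 1, 2 and 3. The lowest MA library thus lay above the highest Control library, and MA replicate 3 lay between the other MA libraries. The Control mean was 3.37 ± 0.13 and the MA mean 4.36 ± 0.13 (SD, n = 3 each). In limma the log2 fold change was 0.98, with a standard error of 0.11, a 95% interval of 0.72 to 1.24 and an adjusted p of 0.0315. In levels, the Control mean was 9.40 and the MA mean 19.5. A two-sided exact permutation test cannot give less than p = 0.1 with 3 libraries in each group, and this was its value here. The direction and size held with each library left out in turn, with a log2 fold change between 0.91 and 1.06, but the adjusted p did not. It was 0.0274 without MA replicate 3, 0.0509 without MA replicate 1 and 0.115 without MA replicate 2. Without Control replicates 1, 2 and 3 it was 0.142, 0.0707 and 0.115. Sult1a1 (ENSMUSG00000030711) is encoded on the minus strand of chromosome 7, between 126672865 and 126676432 of GRCm38, in 7 exonic stretches. Of its 1507 exonic bases, 61 overlap exons of Sgf29 on the other strand, and Sgf29 itself had a log2 fold change of -0.23 (limma adjusted p = 0.722).

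The other sulfotransferases did not pass the test. Sult4a1, an orphan member found mainly in brain, had values between 7.80 and 7.87 in Control and between 7.81 and 7.91 in MA, and a 95% interval for the difference of -0.13 to 0.19. Sult2b1, which sulfates cholesterol and pregnenolone, had a log2 fold change of 0.016 with an interval of -0.34 to 0.37, and was at -0.14 without MA replicate 3. Sult6b1 was under the filter. The 2 enzymes that make the sulfate donor, Papss1 and Papss2, had log2 fold changes of -0.11 each, neither past the test (limma adjusted p = 0.683 and 0.824).

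Sult1a1 was the gene for which the sequence before the start site was examined, beside Akr1c18, whose difference was the largest of the 49 in size, and Cyp1a1, the textbook gene of the aryl hydrocarbon receptor, whose mRNA was at or near 0 here. The windows are the 250 bases before the RefSeq start (GRCm38.p6), read 5′ to 3′ on the strand of the gene. They are chr7:126676419-126676668 on the minus strand for Sult1a1, chr13:4150647-4150896 on the minus strand for Akr1c18 and chr9:57697363-57697612 on the plus strand for Cyp1a1. Capitals mark TGTTCT, the hexamer of the glucocorticoid receptor, or its reverse complement AGAACA in Sult1a1, and GCGTG, the core bound by the aryl hydrocarbon receptor with its partner Arnt, in Cyp1a1. None of the 3 motifs searched stands in the Akr1c18 window.
Sult1a1: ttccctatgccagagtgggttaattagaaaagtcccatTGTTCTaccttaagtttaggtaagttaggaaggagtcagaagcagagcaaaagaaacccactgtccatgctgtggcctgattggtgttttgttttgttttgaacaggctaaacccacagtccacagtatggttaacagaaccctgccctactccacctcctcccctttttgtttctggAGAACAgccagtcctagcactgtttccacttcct
Akr1c18: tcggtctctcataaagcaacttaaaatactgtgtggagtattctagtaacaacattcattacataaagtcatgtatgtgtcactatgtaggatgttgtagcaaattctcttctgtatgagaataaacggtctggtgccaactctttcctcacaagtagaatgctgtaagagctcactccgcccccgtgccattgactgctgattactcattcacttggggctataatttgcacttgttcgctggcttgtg
Cyp1a1: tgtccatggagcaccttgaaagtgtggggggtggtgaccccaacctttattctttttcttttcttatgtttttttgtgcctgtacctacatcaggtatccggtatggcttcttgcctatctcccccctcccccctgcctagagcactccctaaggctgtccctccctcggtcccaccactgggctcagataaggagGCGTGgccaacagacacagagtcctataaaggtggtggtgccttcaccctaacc

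The motifs were searched on both strands in windows from 250 bases before to 50 bases after the start, which were found for 63 of the 81 genes (73 windows). The Sult1a1 window held TGTTCT 2 times, on opposite strands, and no GCGTG. It held no CG pair of bases and had a GC content of 46.3%. Of all 32851 RefSeq windows of this length, 19.0% held TGTTCT, and of the 73 windows of these genes 24.7% did. GCGTG stood in 31.5% of the 73 windows against 32.4% of all windows. TGACNNNGC, the core of the antioxidant response element, stood in 5.48% against 12.4%. These are matches of letters and not binding sites.

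As with Sult1a1, all 10 choroid plexus markers and all 5 tested red blood cell genes were higher in the MA libraries. Of these, 5 and 3 passed the adjusted threshold in limma. In bulk tissue, more cells of a type and more RNA per cell cannot be told apart. The 10 choroid plexus epithelium markers, among them the transthyretin gene Ttr, were all detected, and for all 10 the MA libraries lay above the Control libraries, with a median log2 fold change of 1.71 and 5 past the adjusted threshold in limma. Their summed level was 67.6, 177 and 423 in Control replicates 1, 2 and 3 and 1787, 2321 and 5103 in the MA replicates. Of the 12 fibroblast markers of the meninges and vessels, 9 were higher and none passed the adjusted threshold, while 3 reached an unadjusted p-value of 0.05. Their summed level was 53.6 to 65.8 in Control and 100.4 to 122 in MA. Igf2 and Dcn account for most of that difference, with log2 fold changes of 1.26 and 1.30. Pdgfra was at 0.47, and all others lay between -0.14 (Aldh1a2) and 0.21 (Slc6a13). The 12 endothelial markers had summed levels of 181 to 206 in Control and 201 to 244 in MA, with none called and 2 higher at an unadjusted p-value of 0.05, Cldn5 and Slco1a4. Over all tested rows 4.99% were higher at that threshold, the background for the fibroblast and endothelial counts. For the globin and other red blood cell genes, the MA libraries lay above the Control libraries in all 5 tested, and 3 were called. The summed level of the list was 1599 to 2024 in Control against 3319 to 4378 in MA. All markers of the choroid plexus, fibroblast and endothelial lists passed the filter on low levels, and 5 of the 7 red blood cell genes did. The part of these cells in the Sult1a1 difference was not tested.

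**Figure D3:**
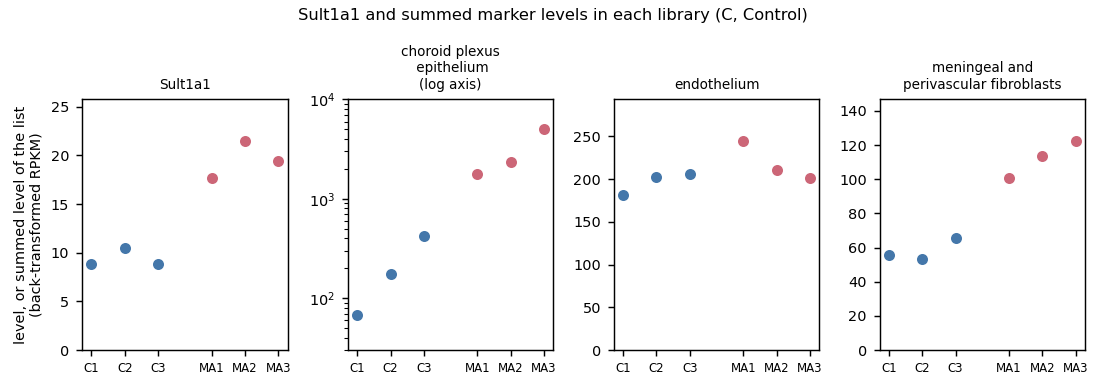
Level of Sult1a1 and summed level of 3 marker lists (back-transformed RPKM; log axis for the choroid plexus list) in each library, with Control libraries in blue and MA libraries in red. Sult1a1 and the choroid plexus and fibroblast sums are higher in every MA library than in every Control library, whereas the endothelial sums overlap. Ttr makes up most of the choroid plexus sum, and Igf2 and Dcn account for most of the difference in the fibroblast sum.

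The neuronal markers, which show neural tissue but cannot check that it was hippocampus, were high in sum. Their summed level was 2971 to 3259 in Control and 2537 to 3566 in MA with none of 9 past an unadjusted p-value of 0.05. Astrocyte sums were 1091 to 1189 and 987 to 1313, with 1 of 10 markers higher (Fgfr3) and 1 lower (Aqp4) at that threshold. Over all tested rows the shares were 4.99% higher and 5.46% lower. Microglia sums were 288 to 313 and 299 to 307, and pericyte and smooth muscle sums 99.3 to 110 and 106 to 113, with none of 10 markers past it in either list.

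The 5 lower genes among the 8 were Akr1c18, Ugt8a, Cyp26b1, Cyp7b1 and Ephx4, and none of them passed the adjusted threshold with all 6 libraries. Akr1c18, the 20-alpha-hydroxysteroid dehydrogenase that inactivates progesterone, had log2 values of 1.99, 1.89 and 1.43 in the Control replicates and 0.44, 0.64 and 1.18 in the MA replicates. The groups did not overlap, and MA replicate 3 was nearest to the controls. The difference was -1.02 on the log2 scale with a 95% interval of -1.55 to -0.49 (limma adjusted p = 0.203). Without MA replicate 3 it was -1.23 (limma adjusted p = 0.0375). The size depends on the offset on the log scale, and was -1.75 with an offset of 0.1 and -1.90 with 0.01 in place of 1. Akr1c18 was a low gene, with a mean level of 2.46 in Control and 0.726 in MA. It lies on chromosome 13 from 4132615 to 4150654. Its neighbor Akr1c14, which makes the neurosteroid allopregnanolone, had log2 values of 0.90 ± 0.33 in Control and 0.64 ± 0.18 in MA (SD, n = 3 each) with overlapping groups (log2 fold change -0.26). Akr1c13, in the same cluster, was under the filter. As these paralogs are similar in sequence, reads could be split between them and the values are uncertain.

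Ugt8a, the ceramide galactosyltransferase that oligodendrocytes use to build myelin lipids, had log2 values of 3.43, 3.42 and 3.25 in Control and 2.93, 2.65 and 3.02 in MA. All MA values were below all Control values. The log2 fold change was -0.50 (95% interval -0.79 to -0.21, limma adjusted p = 0.236), and without MA replicate 3 it was -0.58 (limma adjusted p = 0.0625). All 10 oligodendrocyte markers passed the filter on low levels. Of these markers, 9 were lower in MA and none reached an unadjusted p-value of 0.05, with a median of -0.20. Their summed levels were 3077 to 3414 in Control and 2855 to 3573 in MA. Their part in the Ugt8a difference was not tested. Ugt1a6a, which conjugates phenols with glucuronic acid, had values of 0.65 to 1.12 and 0.80 to 1.49 with overlapping groups.

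Cyp26b1, which degrades retinoic acid, had log2 values of 2.27, 2.03 and 1.81 in Control and 1.30, 1.54 and 1.52 in MA. The groups were apart, with a log2 fold change of -0.58 (95% interval -0.92 to -0.25, limma adjusted p = 0.241). Cyp7b1, the 7-alpha-hydroxylase of oxysterols and neurosteroids, had 3.77, 3.48 and 3.50 in Control and 3.02, 3.22 and 3.36 in MA. Its log2 fold change was -0.38 (95% interval -0.68 to -0.09, limma adjusted p = 0.365). Without MA replicate 3, Cyp26b1 was at -0.62 and Cyp7b1 at -0.46 (limma adjusted p = 0.0919 and 0.0929). Cyp46a1, which starts the removal of cholesterol from neurons, lay the other way, at 5.98, 5.99 and 6.06 in Control and 6.12, 6.13 and 6.17 in MA. The groups did not overlap, but the difference of 0.13 had an interval of -0.04 to 0.29, and was 0.11 without MA replicate 3. Of the 6 tested P450s outside the Cyp1 to Cyp4 families, 4 were higher and 2 lower, with Cyp20a1, Cyp27a1 and Cyp11a1 between 0.083 and 0.10 on the log2 scale.

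Ephx4, a member of the epoxide hydrolase family, had values of 5.14, 5.44 and 5.34 in Control and 5.09, 4.93 and 5.04 in MA. Of its 1646 exonic bases, 73 overlap another annotated gene, Gm17202. The log2 fold change of Ephx4 was -0.29 (95% interval -0.52 to -0.05, limma adjusted p = 0.394). The 2 best known enzymes of the family did not pass the test. For Ephx2, the soluble hydrolase of fatty acid epoxides, the difference was -0.27 (95% interval -0.61 to 0.06), with 2.85 in MA replicate 3 inside the control range and the other MA values below it. Without MA replicate 3, Ephx2 was at -0.38 and Ephx4 at -0.30 (limma adjusted p = 0.147 and 0.161). For Ephx1, the microsomal hydrolase of drug epoxides, the difference was 0.17 (95% interval -0.11 to 0.44).

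Among the Cyp1 to Cyp4 families, 14 of 26 genes were tested, 9 were higher and 5 lower, and 2 higher genes reached an unadjusted p-value of 0.05. Both belong to the Cyp4f group, omega-hydroxylases of fatty acids and leukotrienes, of which 5 tested genes lie together on chromosome 17 between 32506050 and 32947402. Cyp4f15 had log2 values of 2.70, 2.92 and 2.51 in Control and 3.04, 3.21 and 3.31 in MA, and a log2 fold change of 0.47 (95% interval 0.16 to 0.79, limma adjusted p = 0.290). Cyp4f17 had 0.52, 0.42 and 0.70 in Control and 0.89, 0.84 and 0.83 in MA, and a log2 fold change of 0.31 (limma adjusted p = 0.426). The groups were apart for both. Cyp4f17 is a low gene, and its difference was 0.71 with an offset of 0.1 and 0.82 with 0.01. Without MA replicate 3, Cyp4f15 was at 0.41 and Cyp4f17 at 0.32 (limma adjusted p = 0.144 and 0.208), and Cyp4f13 at 0.11. Cyp4f13, Cyp4f16 and Cyp4f14 had log2 fold changes of 0.28, 0.13 and -0.16 with overlapping groups, and so the 5 genes did not all lie in the same direction. Reads could be split between these paralogs too.

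**Figure D4:**
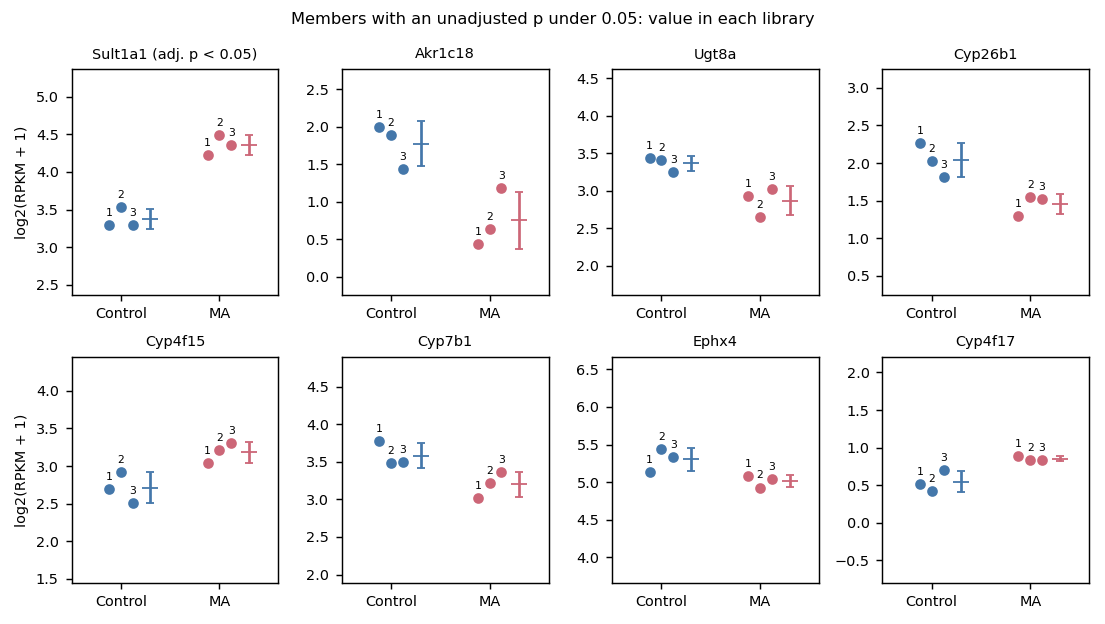
Deposited log2 values in each library (numbered points, Control in blue and MA in red) of the 8 genes that reached an unadjusted p of 0.05, with the mean and SD of each group (n = 3) beside the points, on axes that all span 3 log2 units. The groups do not overlap in any of the 8, and the step is widest for Sult1a1 and Akr1c18.

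The P450s nearest to drug metabolism showed no difference past the test. Cyp2d22 had log2 values of 3.11 to 3.25 in Control and 3.15 to 3.31 in MA, and the 95% interval of the difference ran from -0.14 to 0.30. Cyp1b1, a target of the aryl hydrocarbon receptor, was 0.69 ± 0.05 and 0.79 ± 0.15 (SD, n = 3 each), with an interval of -0.18 to 0.37. Cyp2j9 was 3.36 ± 0.04 in Control and 3.36 ± 0.29 in MA. Cyp2j6 lay at 2.31, 2.38 and 2.20 in Control and, higher in each library, at 2.55, 2.41 and 2.61 in MA, with an interval of -0.02 to 0.47 and 0.19 without MA replicate 3. Por had a log2 fold change of -0.14 with an interval of -0.35 to 0.06 and -0.17 without MA replicate 3. Fmo1, a flavin monooxygenase that oxidizes amines, was 2.98 ± 0.28 and 2.95 ± 0.09, and Fmo2 and Fmo5 did not pass the test either.

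The reductases with the highest levels did not pass the test. Akr1a1 ranged from 8.03 to 8.07 in Control and from 8.05 to 8.10 in MA, with an interval for the difference of -0.12 to 0.18. For Akr1b3, the aldose reductase of the polyol pathway, the interval was -0.24 to 0.15, and for Cbr1 it was -0.13 to 0.24. The difference for Cbr3 was -0.28 on the log2 scale (95% interval -0.58 to 0.03). Its values were 3.53, 3.62 and 3.37 in Control and 3.05, 3.18 and 3.46 in MA, so that the groups overlapped through MA replicate 3 alone, and without it the difference was -0.39 (limma adjusted p = 0.0933). Of the 5 Nat genes none reached an unadjusted p-value of 0.05. Nat8 came nearest, at 1.15, 1.48 and 1.06 in Control and 0.97, 0.48 and 1.01 in MA (log2 fold change -0.41, 95% interval -0.84 to 0.02). The difference for Nat8 was -0.50 without MA replicate 3 but -0.24 without MA replicate 2, and -0.86 with an offset of 0.01. Nat9, which had the highest level of the 5, had a difference of -0.027.

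Genes that work with these enzymes were counted in 6 lists, with 127 tested genes in all. No gene of the first 5 lists passed the adjusted threshold in limma. At an unadjusted p-value of 0.05, 4.99% of all tested rows were higher and 5.46% lower, the background for the counts of each list. Among 13 tested sensors and regulators, an unadjusted p-value of 0.05 was reached by 1 higher and 1 lower gene. Tiparp, a feedback target of the aryl hydrocarbon receptor, was 2.30 ± 0.21 in Control and 1.85 ± 0.17 in MA (SD, n = 3 each), and Rxrg was the higher gene, with a difference of 0.46. The receptor gene Ahr itself was 1.22 ± 0.03 and 0.98 ± 0.18, and the difference of -0.24 did not reach that threshold. Of 13 electron transfer and heme partners, 1 was lower, Cyb5r4, with -0.45.

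Of 23 other oxidizing and reducing enzymes, 5 higher genes and 1 lower gene reached an unadjusted p-value of 0.05, where the background is 10.4% in both directions together. The higher genes were Xdh (0.59), Aox1 (0.50), Maob (0.34), Aldh2 (0.34) and Aldh7a1 (0.24). Maob, the monoamine oxidase of astrocytes, was at 3.05, 2.92 and 3.11 in Control and at 3.52, 3.34 and 3.25 in MA, above each control. Xdh makes uric acid, Aox1 oxidizes aldehydes and nitrogen heterocycles, and the Aldh genes oxidize aldehydes. The lower gene was Hsd11b1, which regenerates active glucocorticoid (-0.46). Of 34 other conjugation enzymes and their cofactor suppliers, 2 were higher, Gsta4 (0.21) and Arsa (0.25), and 1 was lower. This was Ugp2, which makes UDP-glucose, at 4.91, 4.85 and 4.94 in Control and 4.60, 4.45 and 4.43 in MA (log2 fold change -0.41, limma adjusted p = 0.165).

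Of 20 tested drug transporters, 2 were higher at that threshold, against 4.99% of all tested rows. These were the blood-brain barrier transporters Slco1a4 (0.77) and Abcg2 (0.53). Slco1a4 was at 4.85 and 4.57 in MA replicates 1 and 2 and at 3.70 in MA replicate 3, inside the control range of 3.37 to 3.79. The efflux pump Abcb1a had a difference of 0.34, with groups that overlapped through MA replicate 3. Of 24 glucocorticoid-responsive genes, the lipid droplet gene Plin4 rose and was the only gene past the adjusted threshold, at 0.96, 1.41 and 0.99 in Control and 2.18, 2.38 and 2.61 in MA (log2 fold change 1.27, limma adjusted p = 0.0403). This call was lost with an offset of 0.1 on the log scale. In this list an unadjusted p-value of 0.05 was reached by 4 higher and 3 lower genes, Plin4 among them, against 4.99% higher and 5.46% lower over all tested rows. Angptl4, Mertk and Arrdc2 were the other higher genes, and Per1, Tsc22d1 and Errfi1 the lower ones. Fkbp5 and Tsc22d3, which are among the standard readouts of glucocorticoid action, had differences of 0.27 and -0.05 and did not reach it.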

How the data were processed

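The authors deposited 1 table, named as RPKM, with an Ensembl identifier, a symbol and 6 columns on a log2 scale, 1 per library. The paper's methods name Hisat2 and featureCounts, the submitters' processing notes name Bowtie 0.12.2 with mm8 and mm9, and neither describes the log transform or the common distribution of the libraries. An offset of 1 was inferred. The depth is unknown, since the table gives no reads. The n of 3 per group limits the precision. Deposited log2 values were tested with limma 3.58.1 in R 4.3.3 (eBayes with trend, no covariate, adjustment over 13321 rows with a level of at least 0.5 in at least 3 libraries). Coordinates are from GENCODE M21 (GRCm38) by identifier, for location only, and promoter sequences from RefSeq (GRCm38.p6).

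The genes, the lists and Sult1a1 were chosen with earlier results of these data known. Named genes were Sult1a1, the 15 tested genes with the smallest p, the highest of each family, and a list of genes with known roles in brain or drug metabolism; from the lists, up to 3 genes with the smallest p. Sult2b1, Akr1c14, Cyp1a1, the cluster neighbors and further list genes were named after their values were seen. By the labels, same-numbered libraries share only a number. Alternatives were offsets of 0.1 and 0.01, no filter, a minimum mean of 5, centring on the median, quantile normalization, no trend in eBayes, sample quality weights, a replicate block and leaving out each library.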

Additional observations from a re-analysis of the deposited data

How the results depend on the processing

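The log2 fold change of Sult1a1 was between 0.98 and 1.05 in the 9 alternatives with all libraries and between 0.91 and 1.06 with 1 library left out. Its adjusted p in limma passed 0.05 in 7 of those 9 and in 1 of the 6 fits without a library. The 2 exceptions were no filter (0.98, adjusted p = 0.0684) and the replicate block (0.98, adjusted p = 0.0877). No filter, a minimum mean of 5, no trend in eBayes and the replicate block cannot change the fold change, only the p-value. The libraries already share nearly the same distribution, so centring and quantile normalization could move the fold change little. The deviations of same-numbered libraries correlated at -0.197, -0.242 and -0.337. These values show no shared deviation, but with so few libraries per group they cannot exclude a pairing. The number of members called, 1, became 0 both without a filter and under the replicate block, 3 with sample quality weights (Sult1a1, Akr1c18 and Ugt8a), and 0 to 2 with a library left out. Over all tested rows the 35 calls became 3 with no filter, 20 with a minimum mean of 5, 586 with sample quality weights, 15 with the replicate block and 0 to 257 without a library. The 8 members at an unadjusted p-value of 0.05 became 5 with a minimum mean of 5, which leaves 25 members, 5 with the replicate block, 14 with sample quality weights and 6 to 13 without a library. The 11 members whose groups do not overlap became 6 with a minimum mean of 5 and 14 to 20 without a library, as fewer values have to be apart. The 1 called gene of the 6 lists, Plin4, was lost with offsets of 0.1 and 0.01, no filter, a minimum mean of 5 and the replicate block (0 each), sample quality weights called 11, and 0 to 4 were called without a library. Of the 49 tested members, 14 changed sign in at least 1 alternative, all with a difference of at most 0.14 in size. Cyp2j9 was -0.016 with sample quality weights and -0.16 to 0.10 without a library. Sult2b1 and Cyp27a1 were at -0.15 and -0.10 with sample quality weights. Without a library Nat9 ranged from -0.17 to 0.077, Fmo1 from -0.12 to 0.14 and Akr1b3 from -0.076 to 0.0034. Where a count moved for another reason than fewer genes or samples, the cause was not tested.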
